A study of Homo sapiens with 2 samples.

Results

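NDUFA4L2 and 9 further genes of the hypoxia response (BNIP3, PDK1, VEGFA, CA9, EGLN3, ADM, ANKRD37, P4HA1 and HIF1A) were followed in single SH-SY5Y (SY5Y) cells, as 10 of the 33538 Ensembl genes counted. NDUFA4L2 was selected on measured values, the high variance of its counts between these cells, so its spread is given below as a description, and the other 9 members were added as known targets or parts of the same pathway. In GENCODE 44 (GRCh38) NDUFA4L2 lies on chr12:57234903-57240715, minus strand. SY5Y is an established human neuroblastoma line. The cells were untreated, grew without synchronization in T-75 flasks and were taken at about 80% confluence, with no hypoxic, normoxic-control or otherwise treated arm. The 2 flasks, SplitA and SplitB, came from 1 culture, were marked with 1 hashtag antibody each, and were pooled for CITE-seq. The pool gave 1 mRNA library and 1 hashtag library, which are the 2 samples. In them the mRNA and the hashtags of each cell are counted as unique molecular identifiers (UMIs). A cell was given to a flask when its hashtag had at least 3 times the counts of the other and the other had at most 185, and cells with at least 1000 genes were kept after the filters on UMIs and mitochondrial share. This left 896 cells of SplitA and 1180 cells of SplitB. The flasks are replicates 1 and 2 of the same condition, cells of 1 flask are not replicates, and no p-value was therefore computed. Intervals are 95% intervals (exact Poisson for levels, exact binomial for shares and ratios) and cover counting error only.

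Hypoxia-inducible factors (HIFs) are dimers of an oxygen-regulated alpha subunit, such as the product of HIF1A, and a stable beta subunit. With oxygen, prolyl hydroxylases of the EGLN family mark the alpha subunit, the VHL complex ubiquitinates it and it is degraded. Without oxygen it binds hypoxia response elements around a core of RCGTG and switches on genes for glycolysis, angiogenesis, pH control and mitophagy. HIF1A is regulated mainly at the protein level, so its mRNA is not a readout of HIF activity. NDUFA4L2 encodes a small mitochondrial protein, a paralog of the cytochrome c oxidase subunit NDUFA4, and is a HIF target known from hypoxic and VHL-deficient cells, where it lowers oxygen consumption.

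The bases upstream of the start site are shown for NDUFA4L2 and for BNIP3, the member that varied most steadily with it, with every match to the core letters ACGTG or GCGTG, on either strand, in capitals. Both are the RefSeq promoter windows on GRCh38.p14, read 5′ to 3′ on the strand of the gene. The window of NDUFA4L2 is chr12:57240763-57241012 on the minus strand, and RefSeq lists the gene as COXFA4L2. That of BNIP3 is chr10:131981968-131982173 on the minus strand, ending before the first annotated exon.
NDUFA4L2: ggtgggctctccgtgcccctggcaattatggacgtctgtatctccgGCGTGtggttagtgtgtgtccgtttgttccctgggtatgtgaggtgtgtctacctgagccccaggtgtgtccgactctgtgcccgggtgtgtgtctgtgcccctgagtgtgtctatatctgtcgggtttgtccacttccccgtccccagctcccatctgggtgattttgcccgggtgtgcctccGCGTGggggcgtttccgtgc
BNIP3: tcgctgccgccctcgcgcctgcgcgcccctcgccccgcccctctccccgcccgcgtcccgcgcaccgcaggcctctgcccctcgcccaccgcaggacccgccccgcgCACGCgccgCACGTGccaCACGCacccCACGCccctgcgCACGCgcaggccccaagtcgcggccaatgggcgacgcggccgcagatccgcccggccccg

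NDUFA4L2 held 2 matches, both GCGTG, at -204 and -20 from the start site. BNIP3 held 6 matches between -143 and -104, of which the ACGTG matches at -134 and -133 are the overlapping readings of 1 palindrome. In the 250 bases before the start, 8 of the 9 members found in the table had a match in at least 1 window and EGLN3 had none, while VEGFA was not in the table. At least 1 match is common, since 43.2% of 35116 promoter windows had one and 19.4% had 2 or more, but 5 or more were found in 1.36%. These shares are per window, whereas a member counted with any of its windows, of which NDUFA4L2, PDK1 and HIF1A had 2 each. A match describes the letters only and is not evidence of binding.

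The kept cells had the markers of the line. Of 11 adrenergic neuroblastoma genes, 8 had a UMI in over 50% of the cells of each flask, with 318 CPM (UMIs of a gene per 1000000 UMIs of the same cells) of HAND2 in SplitA. In each flask 2 of the 11, TH among them, were under 5%. Of 10 mesenchymal genes, 9 were under 5% and PRRX1 had no UMI, the exception being TWIST1. The median depth was 6068 UMIs in SplitA and 6390 in SplitB. Every cell type present belongs to the line, so no cells that should lack NDUFA4L2 were at hand to measure free RNA, and its level is not known.

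NDUFA4L2 was present in a minority of cells and at many UMIs in few of them. SplitA held 228 UMIs in 86 of 896 cells, or 9.60% of cells (7.75 to 11.7) and 39.0 CPM (34.1 to 44.4). SplitB held 344 UMIs in 131 of 1180 cells, or 11.1% (9.37 to 13.03) and 42.9 CPM (38.5 to 47.7). The intervals of both flasks overlapped. Spread evenly over all UMIs, the same molecules would have touched 22.0% of the cells of SplitA and 24.7% of those of SplitB. Instead, 27 cells of SplitA, 3.01% of the flask, held 3 or more UMIs and together 69.7% of all NDUFA4L2 UMIs, where an even spread gives 3.05 such cells. In SplitB, 47 cells, 3.98% of the flask, held 71.8% of the UMIs, against 5.80 cells under an even spread. The highest cells had 13 and 11 UMIs.

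The variance beyond counting noise, as a squared coefficient of variation, was 14.3 in SplitA and 10.3 in SplitB. Among the 3455 genes of SplitA whose UMI total was within a factor of 2 of that of NDUFA4L2, the median was 0.172 and NDUFA4L2 ranked 2nd. Among 3234 such genes of SplitB the median was 0.165 and it ranked 3rd. Among all genes with at least 20 UMIs, it ranked 14th of 10601 in SplitA and 59th of 11309 in SplitB. Cells with an NDUFA4L2 UMI were also deeper, with a median of 7232 UMIs against 6006 in SplitA and 7511 against 6258 in SplitB. Thinned to 2000 UMIs per cell, 4.02% of the cells of SplitA and 5.01% of those of SplitB still had an NDUFA4L2 UMI. Among the 71 kept multiplets, 7 held 29 UMIs of the gene, or 50.7 CPM. In the 708 cells of both flasks that the filters left out, which had a median of 1427 UMIs, 15 cells held 25 NDUFA4L2 UMIs, or 24.1 CPM.

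The other members covered a range from an abundant transcript to none. UMIs of this 3′ library count transcript ends, so levels were not divided by length. BNIP3, a mitophagy receptor of the outer mitochondrial membrane, was the highest, with 134 CPM (124 to 143) in SplitA and 128 CPM (121 to 136) in SplitB, and a UMI in 51.5% and 49.7% of cells. HIF1A, the oxygen-regulated subunit, followed with 57.7 and 61.2 CPM and 29.2% and 30.4% of cells. NDUFA4L2 came next by level, but its 9.60% and 11.1% of cells were below those of VEGFA. VEGFA, the main angiogenic growth factor, had a lower level of 24.3 and 25.8 CPM in more cells, 12.7% and 14.6%.

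ANKRD37, an ankyrin-repeat protein, and P4HA1, a prolyl hydroxylase subunit that matures collagen, could not be ordered by level. ANKRD37 had 10.4 CPM (7.98 to 13.4) and 12.7 CPM (10.4 to 15.4), and P4HA1 had 11.3 CPM (8.73 to 14.4) and 11.6 CPM (9.36 to 14.2). The next levels also had overlapping intervals. PDK1, the kinase that keeps pyruvate out of the mitochondrial oxidation pathway, had 5.82 and 6.86 CPM. ADM, the vasodilator peptide adrenomedullin, had 5.82 and 4.86 CPM, and EGLN3, the hypoxia-induced prolyl hydroxylase that acts back on HIF, 3.76 and 3.61 CPM. CA9, the membrane carbonic anhydrase used as a hypoxia marker, had 0 UMIs in SplitA, which allows up to 0.513 CPM at a floor of 3 counts, and 2 UMIs in SplitB, or 0.249 CPM (0.0302 to 0.901). For each member with UMIs in both flasks, the intervals of SplitA and SplitB overlapped.

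**Figure D1:**
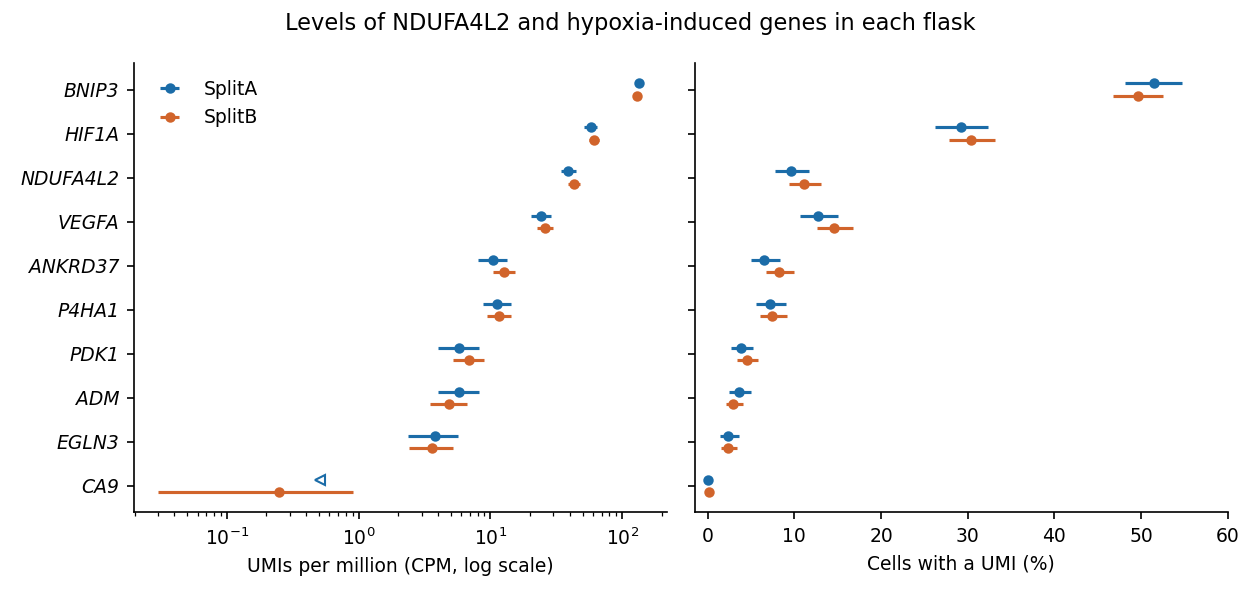
Level (CPM, log scale, left) and share of cells with a UMI (right) of the 10 genes in SplitA and SplitB, with 95% exact intervals. The open triangle for CA9 in SplitA marks the floor of 3 counts, 0.513 CPM. Levels run from 134 CPM for BNIP3 down to CA9, and NDUFA4L2 lies left of VEGFA in share although it is above it in level.

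NDUFA4L2, which was selected for its high variance, had the largest spread between cells of the 9 genes with UMIs in both flasks. Its first place is therefore a description only. The squared coefficient of variation was 0.428 and 0.492 for BNIP3, 0.191 and 0.351 for HIF1A and 1.503 and 1.17 for VEGFA, in SplitA and SplitB. For P4HA1 it was -0.285 and -0.0030, which is no spread beyond counting. ADM reached 5.63 in SplitB, from 39 UMIs, against 1.22 in SplitA.

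NDUFA4L2 varied together with BNIP3 in both flasks, with VEGFA mainly in SplitB, and with the remaining members weakly or not at all. Pearson's r across cells was computed on LogNorm values (log of 1 plus UMIs per 10000) within each flask, over 896 and 1180 cells that share 1 library and differ in depth. With BNIP3, r was 0.13 in SplitA and 0.10 in SplitB. With VEGFA it was 0.041 and 0.15, with P4HA1 0.033 and 0.096, and with ANKRD37 0.013 and 0.050. PDK1, ADM and EGLN3 had opposite signs in SplitA and SplitB, all between -0.016 and 0.057. HIF1A mRNA was the member with a negative value in both, -0.071 and -0.052. Values of this size in counts as sparse as those of PDK1, ADM, EGLN3, ANKRD37 and P4HA1 are no finding.

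Against all genes, 3 of the 9 others passed the limit of being detected in 10% or more of cells per flask, with VEGFA just inside at 12.7% and 14.6% and ANKRD37 just outside at 6.47% and 8.22%. Of the 5203 genes tested beside NDUFA4L2, 46 or 0.884% had an r of at least 0.1 in both flasks, and BNIP3 was 1 of them. In SplitA alone 1.94% reached 0.1 and 1.5% reached -0.1, and in SplitB alone 2.06% and 1.81%, VEGFA being among those at 0.1 or more in SplitB. The median r of all tested genes was -0.0072 in SplitA and -0.0069 in SplitB. In the 28 pairs of members without NDUFA4L2 and CA9, r ranged from -0.046 to 0.067 in SplitA and from -0.042 to 0.11 in SplitB. None of these 28 pairs reached 0.1 in both flasks. No such share was computed over all gene pairs, and most of the 28 include a member below the 10% limit. The count is therefore no finding about the members. BNIP3 and HIF1A had 143 and 193 cells with a UMI of both, at an r of -0.046 and -0.0037. NDUFA4L2 and BNIP3 had 56 and 82 such cells. In sparse pairs such as PDK1 and EGLN3, with 0 and 1 such cells, co-variation of that size may go undetected at this depth.

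The same relation was read from sums over cells. Fewer than 20% of the cells had an NDUFA4L2 UMI, so the top 20% of each flask by NDUFA4L2 was the same as all cells with a UMI, 86 in SplitA and 131 in SplitB, and these were compared with the 810 and 1049 cells without one. BNIP3 had 190 CPM in cells with an NDUFA4L2 UMI and 126 CPM in cells without one in SplitA, a log2 ratio of 0.59 (0.32 to 0.86). In SplitB it had 166 and 123 CPM, a log2 ratio of 0.43 (0.19 to 0.67). Both intervals lay above 0. VEGFA had 31.0 and 23.4 CPM in SplitA, a log2 ratio of 0.41 (-0.32 to 1.07), and 47.6 and 22.4 CPM in SplitB, a log2 ratio of 1.09 (0.61 to 1.55). The SplitA interval of VEGFA includes 0, so a difference was not detectable there. A ratio of at least 1.5-fold was found for 2.56% of the tested genes in SplitA and 2.83% in SplitB, BNIP3 being among the first and VEGFA among the second.

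PDK1, ANKRD37 and P4HA1 were higher by value in both flasks, with log2 ratios between 0.32 and 0.63, but none of their intervals excluded 0. ADM had a log2 ratio of -0.054 in SplitA and 0.93 in SplitB. EGLN3 was the target lower by value in both, at -0.47 and -0.45 from 22 and 29 UMIs. Of the 8 targets, 5 were therefore higher by value in both flasks and 1 lower, and the interval lay above 0 in both flasks for 1, BNIP3. In cells of 4000 to 8000 UMIs, the mean log2 ratio over both flasks was -0.21 for PDK1, -0.0015 for ANKRD37 and 0.15 for EGLN3, so the direction of these 3 turned, while BNIP3 had 0.60 and VEGFA 0.92. Among all 5203 tested genes, 22.3% were higher by any amount in both flasks and 40.9% lower. Of the 8 targets, only 2, BNIP3 and VEGFA, passed the detection limit that defines the tested genes. The other targets were sparser, and no such shares were computed for genes as sparse. The count of 5 of 8 can therefore not be compared with these shares. HIF1A had 42.2 CPM in cells with an NDUFA4L2 UMI against 59.8 CPM without in SplitA, a log2 ratio of -0.50 (-1.09 to 0.041), and 52.1 against 62.6 CPM in SplitB, a log2 ratio of -0.26 (-0.69 to 0.14).

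Split by the number of NDUFA4L2 UMIs, BNIP3 was ordered in the same way in both flasks. It had 126 CPM at 0 NDUFA4L2 UMIs, 164 CPM at 1 or 2 and 252 CPM (189 to 331) at 3 or more in SplitA. In SplitB the same classes had 123, 150 and 192 CPM (152 to 241). HIF1A went the other way, with 59.8, 53.5 and 14.6 CPM in SplitA, the last from 3 UMIs, and 62.6, 58.7 and 40.5 CPM (23.2 to 65.8) in SplitB. Such a fall was common. At 3 or more NDUFA4L2 UMIs, 695 of the 5203 tested genes were at least 1.5-fold lower in both flasks and 108 higher. By r, HIF1A ranked 301st from the lowest. VEGFA had 75.9 CPM (51.2 to 108) in the 47 highest cells of SplitB but 14.6 CPM, from 3 UMIs, in the 27 highest cells of SplitA, which lies below the 23.4 CPM at 0 NDUFA4L2 UMIs.

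The UMIs of the 8 targets summed to 185 CPM (174 to 198), 240 CPM (199 to 287) and 325 CPM (252 to 413) in the 3 classes of SplitA, and to 183, 229 and 332 CPM (277 to 394) in those of SplitB. Most of this sum was BNIP3. Without BNIP3, the other 7 targets gave 59.6, 75.3 and 72.8 CPM in SplitA, with overlapping intervals. In SplitB they gave 60.2, 78.8 and 139 CPM, and the interval of the highest class, 105 to 181 CPM, lay above that of the lowest, 54.5 to 66.2 CPM. VEGFA gave 30 of the 55 UMIs in that highest class, where PDK1 had 5.06 CPM against 6.49 CPM at 0 NDUFA4L2 UMIs and EGLN3 2.53 against 3.75 CPM. No difference of the sum was detectable in the 27 highest cells of SplitA.

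**Figure D2:**
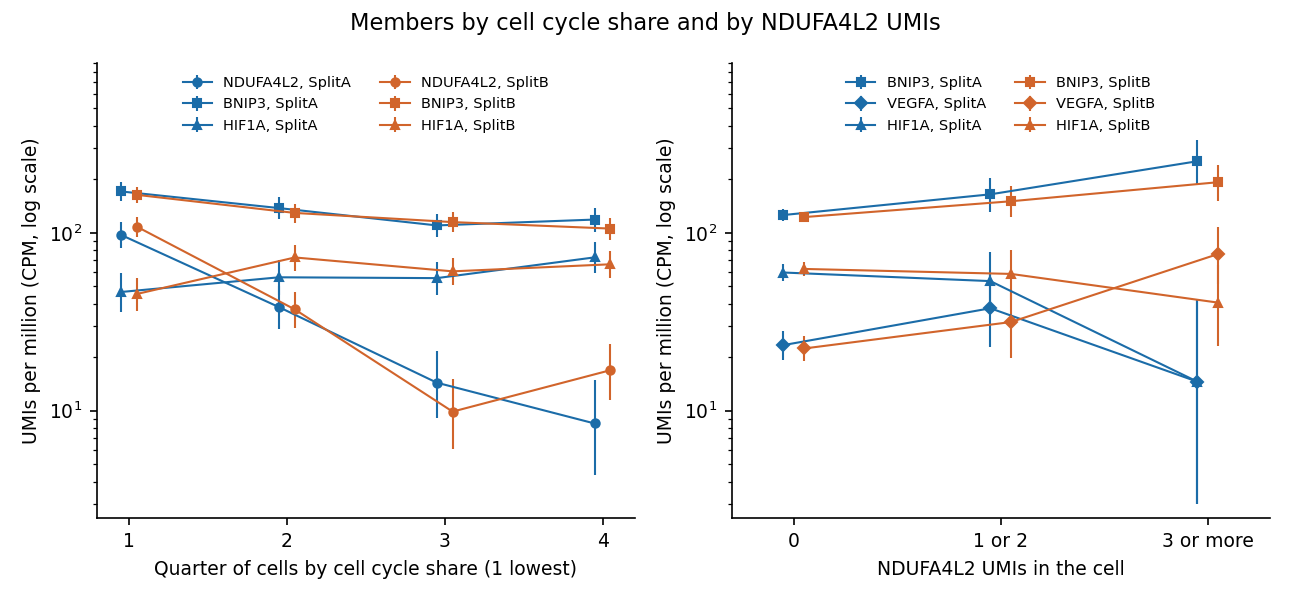
Left, CPM (log scale) of NDUFA4L2, BNIP3 and HIF1A in 4 equal groups of each flask by the share of UMIs on 32 cell cycle genes, 1 being the lowest. Right, CPM (log scale) of BNIP3, VEGFA and HIF1A in cells with 0, 1 or 2, and 3 or more NDUFA4L2 UMIs. Bars are 95% exact Poisson intervals. NDUFA4L2 runs from 97.1 to 8.48 CPM in SplitA over the groups, BNIP3 is higher and HIF1A lower in the first than in the last, and BNIP3 is ordered along NDUFA4L2 in both flasks.

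Cells with NDUFA4L2 had fewer cell cycle transcripts. With each flask cut into 4 groups of equal size by the share of UMIs on 32 genes of S, G2 and M phase, NDUFA4L2 had 97.1, 38.2, 14.4 and 8.48 CPM in SplitA, from the lowest group to the highest. In SplitB it had 108, 37.1, 9.88 and 16.9 CPM. A UMI was found in 18.3% of the cells of the lowest group of SplitA and 3.57% of those of the highest, and in 21.0% and 7.12% in SplitB. The median depth of these groups was 6070 and 6367 UMIs in SplitA and 6519 and 6266 in SplitB. Whether depth contributes to the difference was not tested. BNIP3 had 171 CPM in the lowest and 119 CPM in the highest group of SplitA and 163 and 106 CPM in SplitB. HIF1A was lower in the lowest than in the highest group, with 46.5 and 72.8 CPM in SplitA and 45.3 and 66.5 CPM in SplitB. It was not ordered over the 4 groups, with 72.7 and 60.7 CPM in the middle ones of SplitB. P4HA1 was lower by value in the highest group, with overlapping intervals. It had 16.7 and 8.48 CPM in SplitA, from 24 and 12 UMIs, and 14.9 and 10.6 CPM in SplitB, from 30 and 20 UMIs. PDK1 was higher by value in the highest group, with overlapping intervals. It had 2.78 and 8.48 CPM in SplitA, from 4 and 12 UMIs, and 4.98 and 8.98 CPM in SplitB, from 10 and 17 UMIs. VEGFA had 20.8 and 26.1 CPM in SplitA but 34.9 and 16.4 CPM in SplitB. EGLN3, with 2 and 6 UMIs in SplitA and 5 and 9 in SplitB, was too sparse to order.

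All 30 cell cycle genes that passed the 10% limit were lower beside an NDUFA4L2 UMI in both flasks, against 40.9% of all tested genes. In 10 of them the difference was at least 1.5-fold, against 2.19% of all tested genes. The examples were MCM5, a subunit of the replicative helicase, at log2 ratios of -1.59 and -0.74, CENPF, a mitotic kinetochore protein, at -1.02 and -0.76, and CCNB2, a mitotic cyclin, at -0.96 and -1.02. MCM3, GINS2 and CLSPN, all of S phase, lay between -1.03 and -0.69. Some of these differences were smaller in cells of 4000 to 8000 UMIs. There the mean log2 ratio over both flasks was -0.19 for CCNB2 and -0.49 for CENPF, against -0.99 and -0.89 at all depths. When only the lower-ranked 448 and 590 cells by cell cycle share were used, r with BNIP3 was 0.13 in SplitA and 0.11 in SplitB and the log2 ratios were 0.63 and 0.40. These values were close to those over all cells, but the cell cycle share was not held constant among them. From the lowest group to the next, NDUFA4L2 fell from 97.1 to 38.2 CPM in SplitA and 108 to 37.1 in SplitB. BNIP3 fell from 171 to 138 CPM and from 163 to 129 CPM. Whether the cell cycle share underlies the relation was not tested. The log2 ratios of HIF1A in these cells were -0.40 and -0.63. Among them, the 8 targets summed to 203 CPM (186 to 223) without NDUFA4L2 and 334 CPM (255 to 430) at 3 or more UMIs in SplitA. In SplitB the sums were 204 CPM (188 to 220) and 340 CPM (282 to 405). Without BNIP3, the other 7 gave 61.9 CPM (52.3 to 72.8) and 77.9 CPM (42.6 to 131) in SplitA, with overlapping intervals. They gave 65.2 CPM (56.7 to 74.6) and 145 CPM (109 to 190) in SplitB.

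The tested HIF machinery genes lay close to all tested genes. Of 17, HIF1A and EGLN3 included, 9 passed the 10% limit. None of the 9 reached an r of 0.1 or -0.1 or a 1.5-fold difference in both flasks. Over all tested genes, 0.884% reached 0.1 and 0.769% reached -0.1, while 0.615% were 1.5-fold higher and 2.19% lower. With shares this small, none among 9 says nothing particular about the machinery. The median log2 ratio was -0.054 in SplitA and -0.032 in SplitB, against -0.075 and -0.069 over all tested genes. EPAS1, which encodes the HIF-2 alpha subunit and is abundant in the sympathetic lineage, had 53.4 and 49.9 CPM, and log2 ratios of -0.041 and 0.60. HIF3A, the third alpha subunit and itself a hypoxia-induced gene, was below the limit. It had log2 ratios of 1.85 (0.30 to 3.26) from 21 UMIs in SplitA and 2.01 (0.41 to 3.51) from 18 UMIs in SplitB. It was named for these ratios, so they are a description only.

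Other known HIF targets were more often higher than lower beside NDUFA4L2. Of 44, 14 passed the 10% limit, of which 8 were higher by value in both flasks and 1 lower, with medians of 0.076 and 0.30. For all tested genes these shares were 22.3% and 40.9%. At least 1.5-fold higher in both flasks were 4 of the 14, against 0.615% of all tested genes. The list was chosen with earlier results of these data known, so this contrast is a description only. The 4 genes were COX4I2, AK4, FAM162A and WSB1, all named for these ratios. COX4I2, the hypoxia-induced isoform of cytochrome c oxidase subunit 4, had 35.2 CPM with and 17.5 CPM without NDUFA4L2 in SplitA, a log2 ratio of 1.00 (0.30 to 1.66), and 52.1 and 20.5 CPM in SplitB, a log2 ratio of 1.35 (0.88 to 1.80). AK4, a mitochondrial adenylate kinase, had ratios of 1.54 and 0.63, FAM162A, a mitochondrial protein, 1.08 and 0.69, and WSB1, a ubiquitin ligase adaptor, 0.69 and 0.82. COX4I2, AK4 and FAM162A also had an r of at least 0.1 in both flasks, as did 0.884% of all tested genes.

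Below the limit, the targets described here were picked for a ratio of at least 1.5-fold in the same direction in both flasks. Their ratios follow from that choice and are descriptions only. Other genes of this list below the limit were not picked and are not described. For DDIT4 and BHLHE40, most UMIs beside NDUFA4L2 came from very few cells with many NDUFA4L2 UMIs. DDIT4, an inhibitor of the mTORC1 kinase, had 3.31 CPM at 0, 1.98 CPM at 1 or 2 and 48.5 CPM (23.3 to 89.3) at 3 or more NDUFA4L2 UMIs in SplitA, the last from 10 UMIs in 7 of 27 cells. In SplitB it had 6.78, 4.30 and 58.2 CPM (36.9 to 87.4), the last from 23 UMIs in 7 of 47 cells. BHLHE40, a transcriptional repressor, had 4 UMIs in 1 cell of the highest class of SplitA and 20 UMIs in 4 cells of that of SplitB. Its log2 ratio of 3.82 in SplitB was 2.09 without the cell holding 14 of them, and SplitA had none left in cells with NDUFA4L2. CA12, a carbonic anhydrase related to CA9, had 2 UMIs against 4 in SplitA, and 9 against 8 in SplitB at a log2 ratio of 2.83 (1.29 to 4.41). GBE1, the glycogen branching enzyme, had ratios of 1.68 (-0.47 to 3.52) and 1.44 (0.13 to 2.63). KDM4C, a histone demethylase, was lower by value, with 1 UMI in cells with NDUFA4L2 in each flask.

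**Figure D3:**
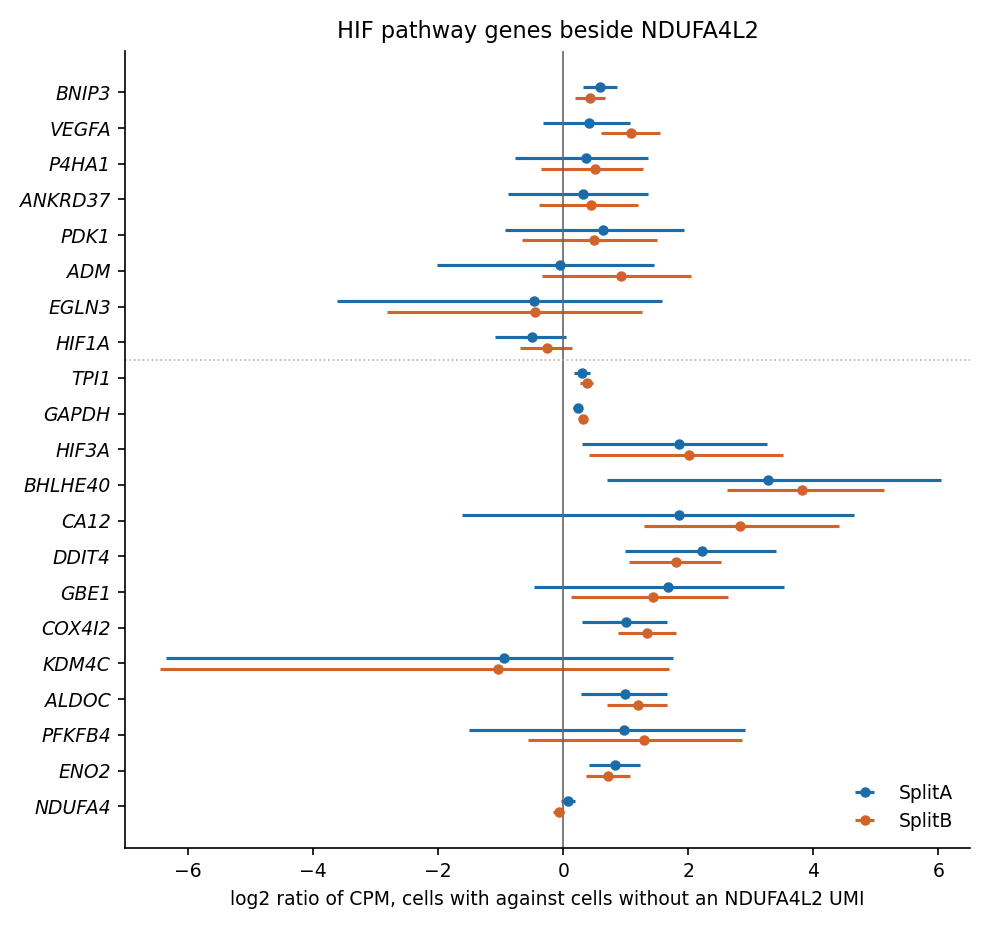
log2 ratio of CPM between cells with and cells without an NDUFA4L2 UMI, with 95% exact intervals, in SplitA and SplitB. Above the dotted line are the members. Below it are NDUFA4 and those HIF pathway genes that were picked for a 1.5-fold difference in both flasks or for their r. The side of 0 on which the picked genes lie follows from that choice, and genes not picked, such as ENO1, are not drawn. BNIP3 lies above 0 in both flasks, HIF1A below 0 by value, COX4I2, ALDOC and ENO2 between 0.72 and 1.35, and NDUFA4 at 0.071 and -0.068.

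The glycolytic HIF targets were split by enzyme. Of 20 genes, 15 passed the limit, and 10 were higher by value in both flasks and 2 lower. Of all tested genes, 22.3% were higher in both flasks and 40.9% lower. The median log2 ratio of the 15 was 0.084 in SplitA and 0.29 in SplitB. ALDOC, an aldolase isoform of neural cells, and ENO2, the neuronal enolase, were at least 1.5-fold higher in both, ALDOC with 33.8 against 16.9 CPM in SplitA and 45.7 against 20.1 CPM in SplitB, and ENO2 with 90.1 against 50.6 CPM and 78.7 against 47.8 CPM. TPI1, triose phosphate isomerase, had log2 ratios of 0.30 (0.18 to 0.43) and 0.38 (0.27 to 0.48), and GAPDH had 0.23 (0.16 to 0.30) and 0.32 (0.27 to 0.38). TPI1, GAPDH and ENO2 had an r of at least 0.1 in both flasks. Of all tested genes, 0.884% had such an r and 0.615% were at least 1.5-fold higher in both flasks. This list too was chosen with earlier results known, so these contrasts are descriptions only. ENO1, the isoform of most tissues, was lower by value, at -0.23 and -0.15. SLC2A1, the glucose transporter GLUT1, had -0.10 in SplitA and 0.80 in SplitB. PFKFB4, a regulator of phosphofructokinase, had 0.98 and 1.29 from 14 and 18 UMIs.

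NDUFA4, the paralog of NDUFA4L2, was abundant in both kinds of cell. It had 1081 CPM in cells with an NDUFA4L2 UMI and 1029 CPM without in SplitA, a log2 ratio of 0.071 (-0.040 to 0.18), and 1082 and 1135 CPM in SplitB, a log2 ratio of -0.068 (-0.16 to 0.020). Both intervals include 0. C15orf48, the third paralog, had 0 UMIs in SplitA and 1 in SplitB. Of 12 tested subunits of the family and of cytochrome c oxidase, 9 were lower by value in both flasks, against 40.9% of all tested genes. Their median log2 ratio of -0.049 in SplitA and -0.064 in SplitB was no lower than the -0.075 and -0.069 of all tested genes. COX4I2 was the one at least 1.5-fold higher, as were 0.615% of all tested genes. COX4I1, the common isoform of COX4I2, had ratios of -0.056 and -0.0077.

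Of the 10 genes whose pattern over cells was most like that of NDUFA4L2, TPI1 and GAPDH were on the lists of HIF targets. Besides the members, those lists held 14 and 15 of the 5203 tested genes. Ranked by the weaker r of the 2 flasks, the first 3 were CDKN1C, with 0.30 and 0.27, GNAS, with 0.27 and 0.29, and DLK1, with 0.24 and 0.29. CDKN1C encodes the cyclin-dependent kinase inhibitor p57, GNAS the stimulatory G protein subunit, and DLK1 a Notch-like ligand of neuroendocrine precursors. CDKN1C had 165 against 57.1 CPM in SplitA and 170 against 60.2 CPM in SplitB, log2 ratios of 1.53 (1.21 to 1.84) and 1.499 (1.24 to 1.75). Its level reached 306 CPM in SplitA and 291 CPM in SplitB at 3 or more NDUFA4L2 UMIs. GNAS was 1.01 and 1.06 higher on the log2 scale, and DLK1 0.94 and 1.27.

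TPI1 was 4th, RPS18, a ribosomal protein, 5th with 0.15 and 0.16, and DDC, the decarboxylase that makes dopamine, 6th with 0.15 and 0.21. KCNQ1OT1, the noncoding RNA of the CDKN1C locus, had 0.21 and 0.14, C4orf3, a regulator of the calcium pump, 0.14 and 0.14, MT-ND5 of complex I 0.14 and 0.14, and GAPDH 0.13 and 0.20. BNIP3 came 37th. At the other end, 40 genes or 0.769% had an r of -0.1 or less in both flasks. The lowest 5 were HMGB1, a chromatin protein, with -0.22 and -0.29, STMN1, a microtubule regulator, with -0.21 and -0.22, PTMA, a chromatin-associated acidic protein, with -0.20 and -0.25, the histone variant gene H2AZ1 with -0.20 and -0.23, and MT-ATP6, an ATP synthase subunit, with -0.19 and -0.21. MT-ND5 and MT-ATP6, both transcribed from mitochondrial DNA, thus stood at opposite ends. The median mitochondrial share of cells with and without an NDUFA4L2 UMI was 7.96% and 8.73% in SplitA and 8.59% and 8.81% in SplitB. This share is over 13 mitochondrial genes, whereas the cell filter used 9.

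**Figure D4:**
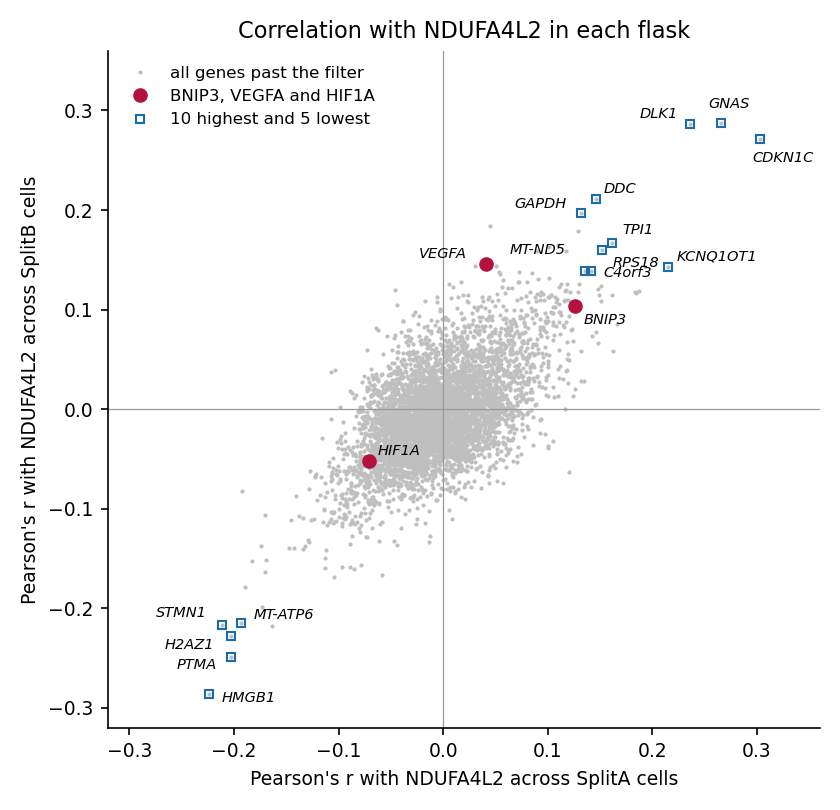
Pearson's r with NDUFA4L2 across the cells of SplitA (x axis) and of SplitB (y axis) for 5203 genes detected in 10% or more of cells per flask (grey), the 3 members among them (red) and the 10 highest and 5 lowest genes (blue squares). BNIP3 lies at 0.13 and 0.10 at the edge of the cloud, HIF1A on its negative side, and CDKN1C, GNAS and DLK1 stand apart at the top right.

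The neuroendocrine genes were divided. Of 9 tested adrenergic genes, 4 were higher by value in cells with NDUFA4L2 in both flasks and 3 lower. An r of -0.1 or less in both flasks was found for 2 of the 9, against 0.769% of all tested genes. None had an r of 0.1 or more in both, against 0.884%. The lowest log2 ratios among the 9 were -0.51 in SplitA and -0.75 in SplitB. Of 4 tested sympathoblast and chromaffin genes, 3 were higher and 1 lower. Over all tested genes, 22.3% were higher in both flasks and 40.9% lower. CHGA and CHGB, chromogranins of dense-core granules, had log2 ratios of 0.72 and 0.86 and of 0.78 and 1.73. The neuropeptide gene GAL had 0.95 and 1.11. CARTPT, a neuropeptide precursor below the limit, had 31 of its 65 UMIs in SplitA and 105 of its 136 in SplitB in cells with NDUFA4L2. Without the cell with the most CARTPT UMIs, 12 in SplitA and 58 in SplitB, its ratios were 2.03 and 3.28. TH, which makes the precursor of dopamine, had 4 UMIs in 86 cells and 5 in 810 in SplitA, and 5 in 131 and 4 in 1049 in SplitB. Among sympathetic transcription factors, HAND2 had 0.23 (0.039 to 0.42) and 0.36 (0.21 to 0.51), and GATA2 had -0.28 (-0.47 to -0.11) and -0.47 (-0.63 to -0.31). The neuropeptide gene NPY was lower by value, at -0.11 and -0.34. Of the mesenchymal genes, SNAI2 had 1 UMI in cells with NDUFA4L2 against 45 in SplitA and 4 against 52 in SplitB, whereas FN1, fibronectin, with log2 ratios of 1.27 and 1.18, and FOSL2, an AP-1 subunit, with 0.85 and 1.08, were higher by value from 2 to 7 UMIs in those cells.

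The integrated stress response genes had no common direction. The 2 tested metallothioneins were higher by value in both flasks, as were 22.3% of all tested genes. Of 8 genes of the integrated stress response, DDIT3 had log2 ratios of 0.61 (-0.48 to 1.57) and 0.94 (0.25 to 1.59), SESN2 0.68 and 0.93 from 11 and 13 UMIs, while ASNS, asparagine synthetase, had -1.23 (-3.15 to 0.19) and -1.58 (-3.06 to -0.42) and TRIB3 had -0.61 and -1.04. Of the 6 metallothioneins, MT1X and MT2A passed the limit, with ratios of 0.086 and 0.11 in SplitA but 2.79 and 2.06 in SplitB. The SplitB values rest partly on single cells, since 1 cell held 191 MT1X UMIs and another top count was 106 for MT2A, and without the top cell they were 1.94 and 1.55.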

How the data were processed

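SH-SY5Y cells of both flasks were profiled as 1 CITE-seq pool with a 10x 3′ kit, which gave 1 mRNA library and 1 hashtag library. Per the submitters' processing notes STAR 2.7 and Cell Ranger 4.0.0 were used, with GRCh38. The authors deposited UMI counts per gene and cell with no normalization, for 33538 genes and 2 hashtags in 2879 cells. The release of the annotation is not given in the sources used here, and 33113 identifiers were matched to a symbol. Flasks were assigned by the hashtag limits of the supplementary code (185 counts, 3-fold). The cell filters were more than 500 UMIs and 300 genes, log10 genes divided by log10 UMIs above 0.75, a mitochondrial share below 15% (9 genes, as that code finds them) and 1000 or more genes, counting genes seen in 3 or more cells. Kept cells of both flasks had 1801 to 27205 UMIs. Hashtag multiplets were left out and no doublet caller was run, so doublets within a flask remain.

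CPM are summed UMIs of a gene per 1000000 UMIs of the same cells, with NDUFA4L2 taken out of the totals for ratios between cells with and without it. LogNorm used a scale factor of 10000. The floor behind a zero was 3 counts. Tested genes were detected in 10% or more of cells per flask. Scripts were tested on simulated data and used scipy 1.17.1 and numpy 2.4.6 under Python 3.11.15, with matplotlib 3.10.9 and pandas 2.3.3. Gene spans were checked in GENCODE 44, where EGLN3 alone overlaps another counted gene on its strand, and promoters are from RefSeq.

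The members and the gene lists were chosen with earlier results of these data known. Named are the 10 members, the 10 genes with the highest and the 5 with the lowest r ranked by the weaker flask, and per list up to 6 genes at least 1.5-fold apart in both flasks, with the NDUFA4 family always. EPAS1, ENO1, SLC2A1, COX4I1, AK4, FAM162A, WSB1, HAND2, GATA2, NPY, MT1X and MT2A fall outside this rule and were chosen after their values were seen. Both flasks share 1 condition and 1 mRNA library, which left no groups to test. Alternatives concerned the filters, hashtag limit, depth, cell cycle, totals, correlation measure, limits, the definition of high cells and each flask. Further HIF targets are counted from 44 genes, glycolytic ones from 20, the machinery from 17, the cell cycle from 32. Some genes of the marker lists are not reported here.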

Additional observations from a re-analysis of the deposited data

How the results depend on the processing

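The mean over both flasks was 40.9 CPM of NDUFA4L2 in 10.4% of cells, with a squared coefficient of variation of 12.3. In the lower-ranked cells by cell cycle share it was 70.5 CPM, 14.6% and 7.85. Thinned to 2000 UMIs it was 37.5 CPM, 4.52% and 19.6. Without mitochondrial genes in the totals the level was 45.1 CPM, and with cells of at least 300 genes the share was 8.99%. The median r with 8 members was 0.036, and 0.0072 when thinned. Leaving out 1 flask gave 39.0 to 42.9 CPM, 9.60% to 11.1%, 10.3 to 14.3 and 0.019 to 0.054.

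The 46 genes at an r of at least 0.1 in both flasks were 6 when thinned, 26 with a partial correlation on log10 UMIs and 5 at a limit of 0.15. The 40 negative ones were 8 when thinned, 11 at that limit, 25 with Spearman's rho and 19 with cells of at least 300 genes. In 1 flask alone the counts were 101 to 107 and 78 to 94. Genes at least 1.5-fold higher and lower beside NDUFA4L2 in both flasks numbered 32 and 114. They numbered 77 and 241 with a limit of 5% of cells, 64 and 230 in cells of 4000 to 8000 UMIs, and 108 and 695 with 3 or more NDUFA4L2 UMIs as high, which leaves 27 and 47 cells. In 1 flask they numbered 133 to 147 and 402 to 498. TRIB3 went from a mean log2 ratio of -0.82 to 0.19 at 3 or more UMIs.

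BNIP3 kept a positive mean r of 0.066 to 0.12 and a positive mean log2 ratio of 0.44 to 0.83 under all 10 and 12 alternatives run, with the lowest r when thinned, where SplitB alone gave 0.038. HIF1A kept a negative mean, from -0.084 to -0.037 for r and from -1.33 to -0.36 for the ratio. The values with 3 or more NDUFA4L2 UMIs and those without the top cell of a gene were added after seeing the data. No paired analysis was possible because the 2 flasks are replicates of a single group. Between 0 and 55 UMIs per flask limit what can be read from CA9, EGLN3, ADM and PDK1.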
